A study of Mus musculus with 8 samples.

Results

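The 10 glutathione S-transferase genes described here are Gsta3, Gsta4, Gstm1, Gstm2, Gstm3, Gstm4, Gstp1, Gstt1, Gstk1 and Mgst1. They were taken by name from 19938 genes on a mouse gene array, each as the probe that carried only that gene symbol and, where there were several such probes, had the highest mean over the arrays. The animals were 4 male C57BL/6J mice on a normal diet, M24, M48, M50 and M60, all injected with AAV-vector (adeno-associated virus) when 2 to 3 months old and necropsied after another 18 months. Each contributed a hepatocellular carcinoma and normal liver from beside it, so that 8 arrays covered 4 tumor and 4 adjacent samples. Adjacent liver had been exposed to the same vector as the tumors, the content of the vector is not given in the sources used here, and no liver from an untreated mouse entered the comparison. The question was how the expression of these genes in a tumor differed from that in the adjacent liver of the same mouse.

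Glutathione S-transferases attach the tripeptide glutathione to reactive, electrophilic compounds, which makes these compounds more soluble and marks them for export. Hepatocytes are a main site of this reaction, and the soluble enzymes are grouped by sequence into classes (alpha, mu, pi, theta, omega, zeta), with a separate kappa enzyme in mitochondria and peroxisomes and microsomal enzymes embedded in membranes. Many of their genes are known to respond to xenobiotic-sensing receptors and to NRF2, a transcription factor of the oxidant response.

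All values are log2 expression values as deposited by the authors, and a difference is the tumor value minus the adjacent value on that scale, over n = 4 pairs. The words rose and fell are used where limma gave an adjusted p under 0.05 in a fit with the mouse as a block and Benjamini-Hochberg adjustment over 11963 tested genes. Levels of different genes are not compared, because probes differ in brightness. The precision is limited by the number of arrays. Probes of hepatocyte markers were bright in both tissues, with a mean over 8 markers from 13.35 to 13.45 in adjacent samples and from 13.13 to 13.39 in tumors. Of these 8, Cps1 (-0.84) and Apoa2 (-0.32) fell, Apoa1 (0.32) rose and 5 did not pass. Beside them, 6 of 10 endothelial and 5 of 10 stellate and myofibroblast markers rose, where 16.3% of all tested genes rose and 15.7% fell. Their mean log2 level was 7.09 to 7.34 and 6.85 to 7.83 in adjacent samples, against 7.67 to 8.08 and 8.05 to 8.38 in tumors. Of 6 tested cholangiocyte markers 3 rose and 1 fell. The mean over all 9 measured cholangiocyte markers, of which 3 were below the filter, was 4.84 to 4.98 in adjacent samples and 5.26 to 6.00 in tumors. Of 10 macrophage markers Cd163, Marco, Timd4 and Clec4f fell and Cd68 rose. The part of these cells in the results below was not tested, and in bulk tissue fewer cells of a type and less RNA per cell cannot be told apart. The adjacent sample of M48 stood apart in genes known to be higher in male liver, whose mean over 21 genes was 7.71 there and 9.76 to 10.01 in the other adjacent samples. In tumors 16 of these 21 genes fell and 3 rose, with a median of -1.74 and a mean level of 7.37 to 8.44. The 4 with the smallest p were Cyp7b1 (-4.12), Selenbp2 (1.15), Cyp4a12b (-3.66) and C8b (-1.23).

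Of the 10 genes, all of which passed the filter on low values, 3 fell (Gstk1, Gsta3 and Mgst1), 1 rose (Gstm4) and 6 did not pass the test. Among all tested genes 15.7% fell and 16.3% rose, 31.9% together, so the 40% of the members that were called was near the background. With no replicate block the background was 15.0% lower, 14.6% higher and 29.6% together, and 3 members fell and 0 rose (Gstm4, adjusted p = 0.207). The median difference over the 10 genes was 0.08, beside 0.0008 over all tested genes. The members did not move in one direction. None had all tumors above all adjacent samples, a pattern found in 14.9% of tested genes.

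**Figure D1:**
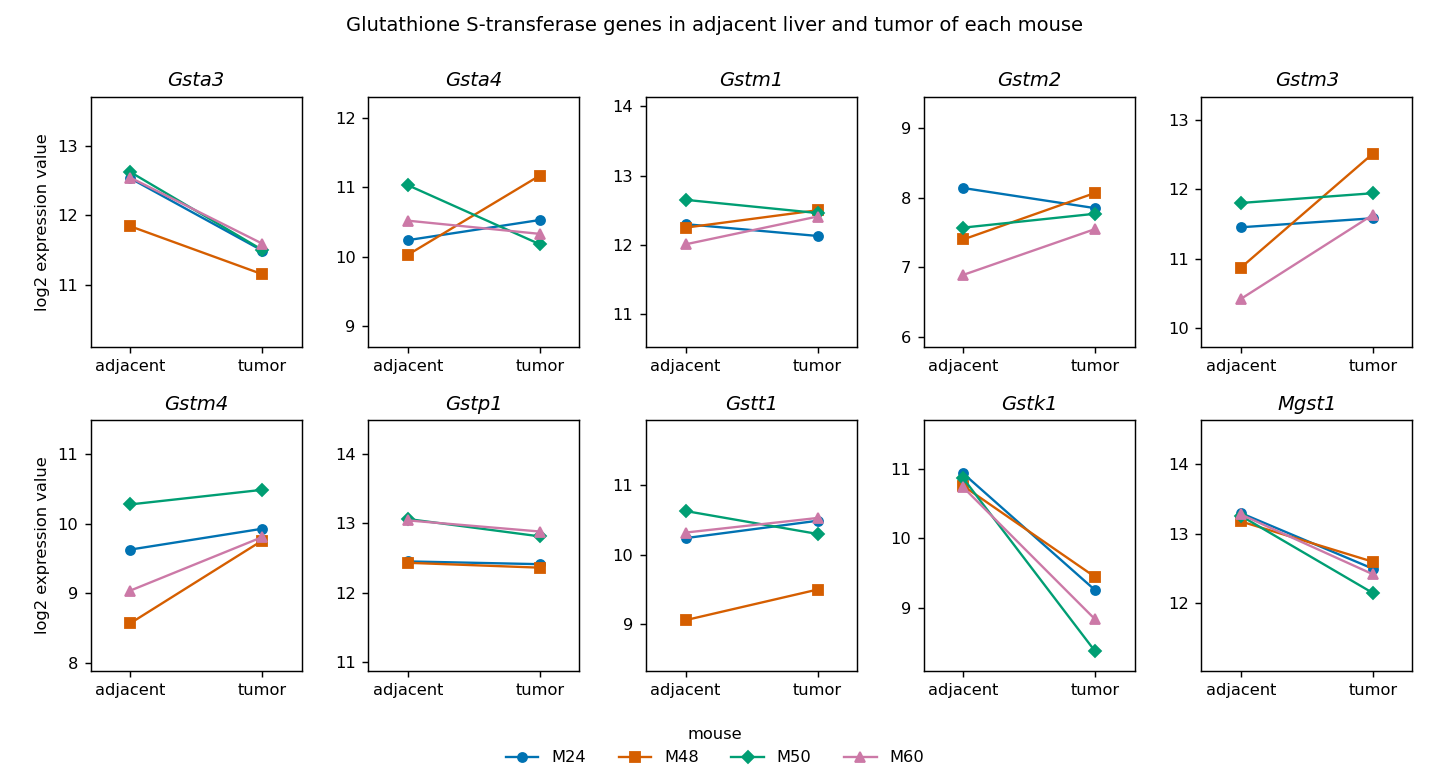
Log2 expression values (y axis, every panel spanning the same range of log2 units) of the 10 genes in adjacent liver and tumor, with a line for each of the 4 mice. The lines of Gstk1, Gsta3 and Mgst1 run down in all 4 mice, while those of Gsta4 cross.

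Gstk1, the kappa-class enzyme of mitochondria and peroxisomes, showed the largest difference of the 10. It stood at 10.93, 10.75, 10.86 and 10.73 in the adjacent liver of M24, M48, M50 and M60 and at 9.25, 9.44, 8.37 and 8.83 in their tumors. The adjacent samples were nearly equal, every tumor lay below them, and the tumors were spread more widely (SD 0.476 against 0.0962). Gstk1 fell by 1.85 on the log2 scale (SE 0.181, adjusted p = 0.000994), a level 3.6-fold lower in tumors, and lower in 4 of 4 mice. The fall was largest in M50, at -2.49, and smallest in M48, at -1.31.

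Mgst1, the microsomal transferase of the endoplasmic reticulum and outer mitochondrial membrane, which also reduces lipid peroxides, fell in the same order of mice. Its adjacent values were 13.30, 13.18, 13.26 and 13.28 in M24, M48, M50 and M60, and its tumor values were 12.50, 12.60, 12.15 and 12.42. The groups did not overlap, and the adjacent samples were again close together (SD 0.0552). Mgst1 fell by 0.84 (SE 0.108, adjusted p = 0.00245), a level 1.79-fold lower, with the largest fall in M50 (-1.11), then M60 (-0.87), M24 (-0.80) and M48 (-0.58). These levels are close to the top of the measured range, since the brightest probe of each array lay between 14.37 and 14.49, and differences can be compressed there, as for Gsta3 below.

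Gsta3, an alpha-class enzyme known in mouse liver for the detoxification of aflatoxin epoxide, was the third gene that fell. Its adjacent values were 12.53, 11.84, 12.62 and 12.54 in M24, M48, M50 and M60, and its tumor values 11.49, 11.15, 11.50 and 11.59. All tumors lay below all adjacent samples, although the adjacent liver of M48 was already lower than the other 3. Gsta3 fell by 0.95 (SE 0.0989, adjusted p = 0.00118), a level 1.93-fold lower, by between 0.69 in M48 and 1.12 in M50. Non-overlapping groups with the tumors lower were seen for 15.6% of all tested genes and for these 3 of the 10 members. The falls of all 3 kept an adjusted p under 0.05 whichever mouse was left out, also without M48.

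Gstk1 was also the gene whose pattern over the 8 arrays was compared with those of all tested genes. The highest Pearson correlation was that of Mgst1 (r = 0.995). The 5 most similar genes outside the family were Mfsd4b1 (r = 0.994), Slco1b2 (0.994), Gpld1 (0.993), Chchd7 (0.993) and Dpp4 (0.992), and all 5 fell, from -1.08 for Gpld1 to -2.65 for Slco1b2, a hepatocyte uptake transporter of organic anions. The 8 arrays share the tissue difference within each mouse, so these values describe a common pattern and carry no test. Genes picked for so high a correlation with Gstk1 are lower in tumors by that choice, so the direction of the 5 is no separate result.

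The upstream promoter sequences of the 3 genes that fell and of Gstm4, the gene that rose, are shown because NRF2 acts through the antioxidant response element, whose core has the letters TGACNNNGC. Sequences are from RefSeq, build GRCm38.p6, 250 bases before the annotated start, read 5′ to 3′ on the strand of the gene, and capitals mark the core wherever it occurs on either strand. Promoters were found for 9 of the 10 genes, in 12 windows. The windows printed lie at chr1:21240335-21240584 on the plus strand for Gsta3, chr6:138140277-138140526 on the plus strand for Mgst1 (its first of 2 annotated starts), chr6:42245685-42245934 on the plus strand for Gstk1 and chr3:108044860-108045109 on the minus strand for Gstm4.
Gsta3: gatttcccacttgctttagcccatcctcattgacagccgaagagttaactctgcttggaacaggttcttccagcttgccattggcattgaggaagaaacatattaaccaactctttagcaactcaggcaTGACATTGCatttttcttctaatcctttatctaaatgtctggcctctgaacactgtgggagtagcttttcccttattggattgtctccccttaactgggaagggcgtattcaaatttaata
Mgst1: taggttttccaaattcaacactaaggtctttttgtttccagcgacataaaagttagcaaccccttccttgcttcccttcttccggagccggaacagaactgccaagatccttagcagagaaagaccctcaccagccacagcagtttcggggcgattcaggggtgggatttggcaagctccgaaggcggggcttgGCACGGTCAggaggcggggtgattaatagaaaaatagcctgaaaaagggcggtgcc
Gstk1: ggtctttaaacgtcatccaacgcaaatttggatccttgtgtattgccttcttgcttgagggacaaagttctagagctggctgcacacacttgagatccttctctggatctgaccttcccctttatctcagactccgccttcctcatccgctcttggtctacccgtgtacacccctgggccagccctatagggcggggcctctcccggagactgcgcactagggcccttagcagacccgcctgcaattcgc
Gstm4: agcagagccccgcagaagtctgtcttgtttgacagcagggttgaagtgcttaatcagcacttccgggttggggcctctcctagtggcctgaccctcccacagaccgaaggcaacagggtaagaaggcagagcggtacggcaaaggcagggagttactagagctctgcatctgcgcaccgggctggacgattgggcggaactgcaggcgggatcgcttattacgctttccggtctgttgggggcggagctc
The core occurred in Gsta3, as TGACATTGC from -121 to -113 before the start, and in Mgst1, as TGACCGTGC on the opposite strand from -56 to -48. It was in 2 of the 12 windows of these genes and in 10.2% of 32851 promoter windows of that length. Both genes with the core fell in the tumors, as did Gstk1, whose window held no core. A link between the core and the falls was not tested. The core letters of the dioxin response element, GCGTG, which is read by the AHR receptor, were found in 3 of the 12 windows, those of Gstm1 and Gstp1, and in 28.2% of all windows. The windows of the 2 Gstm1 starts overlap and hold the same match, and those of Gstm4 overlap as well. No window held both motifs. A match is a string of letters and not a measured binding site.

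Gsta4, the alpha-class enzyme with high activity toward the lipid peroxidation product 4-hydroxynonenal, went in opposite directions in different mice. Its values were 10.24, 10.03, 11.03 and 10.52 in the adjacent liver of M24, M48, M50 and M60 and 10.53, 11.17, 10.18 and 10.33 in the tumors. M48 had the lowest adjacent value and the highest tumor value, and M50 had the highest adjacent value and the lowest tumor value. The differences were 1.14 in M48, 0.28 in M24, -0.19 in M60 and -0.85 in M50. The mean of 0.10 (95% interval -0.60 to 0.79, adjusted p = 0.828) was far smaller than the spread between mice, and its sign turned without M48, to -0.25.

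The mu class, which conjugates many epoxides and aromatic electrophiles, is encoded by 7 genes that lie side by side on chromosome 3 in the RefSeq gene order, with no other protein-coding gene between them. All 7 were measured: the members Gstm1 to Gstm4, and Gstm5, Gstm6 and Gstm7. These genes are close copies of each other, their probes can share signal, and the value of each is uncertain for that reason. The mean difference was above 0 in all 7, from 0.07 for Gstm1 to 0.88 for Gstm5, but only Gstm4 and Gstm5 passed the test. Among all tested genes 16.3% rose, and the median difference was 0.0008.

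Gstm4 stood at 9.63, 8.57, 10.28 and 9.04 in the adjacent liver of M24, M48, M50 and M60 and at 9.93, 9.76, 10.49 and 9.81 in their tumors. Each tumor exceeded its own adjacent liver, while the groups overlapped because the adjacent samples were widely spread (SD 0.742). Gstm4 rose by 0.62 (SE 0.17, adjusted p = 0.0333), a level 1.53-fold higher, with 1.19 in M48, 0.77 in M60, 0.30 in M24 and 0.21 in M50. Leaving out M24 (adjusted p = 0.0545), M48 (0.062) or M60 (0.116) ended the call, as did the fit with no replicate block (0.207).

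Gstm3 showed the largest mean of the 4 mu-class members without passing. Its values were 11.45, 10.87, 11.80 and 10.42 in the adjacent samples of M24, M48, M50 and M60 and 11.58, 12.51, 11.94 and 11.63 in the tumors. Most of the difference lay in M48, with 1.65, and M60, with 1.21, against 0.13 in M24 and 0.14 in M50. The mean of 0.78 had a 95% interval of 0.14 to 1.42 and an adjusted p = 0.0692. The other probe of Gstm3 gave a difference of 1.26, from adjacent values of 10.51, 9.46, 10.96 and 8.75 to tumor values of 10.66, 11.88, 11.21 and 10.96. With both probes averaged the difference was 1.02 and the adjusted p = 0.0644. The size differed between the probes, and the other probe was not tested on its own.

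Gstm1 and Gstm2 differed less. Gstm1 was at 12.30, 12.25, 12.65 and 12.01 in the adjacent liver of M24, M48, M50 and M60 and at 12.13, 12.50, 12.46 and 12.41 in the tumors, higher in 2 mice and lower in 2. Its difference of 0.07 (95% interval -0.23 to 0.37, adjusted p = 0.702) became -0.04 without M60. Gstm2 was at 8.14, 7.40, 7.57 and 6.89 in adjacent liver and at 7.85, 8.07, 7.77 and 7.55 in the tumors, higher in 3 of 4 mice. Its difference was 0.31 (95% interval -0.10 to 0.72, adjusted p = 0.213), and 0.51 without M24, where the adjusted p was 0.0493.

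Of the other mu-class genes, Gstm5 rose by 0.88 (SE 0.16, adjusted p = 0.00783). Its adjacent values of 7.41, 6.52, 7.14 and 6.75 all lay below its tumor values of 8.15, 7.94, 7.57 and 7.68. Gstm6 (0.35, adjusted p = 0.233) and Gstm7 (0.27, adjusted p = 0.176) did not pass. The median difference over the 7 genes was 1.17 in M48, 0.67 in M60, 0.14 in M50 and 0.07 in M24, although the order of the mice varied from gene to gene (Gstm1 differed most in M60). The lowest adjacent value belonged to M48 for 4 genes and to M60 for the other 3. The standard deviation was larger among adjacent samples than among tumors for all 7 genes, as it was for 51.5% of all tested genes. The low male-biased genes in the adjacent liver of M48 were measured beside this, but not in M60, whose mean over the male-biased list was 10.01, and their part in the difference was not tested.

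**Figure D2:**
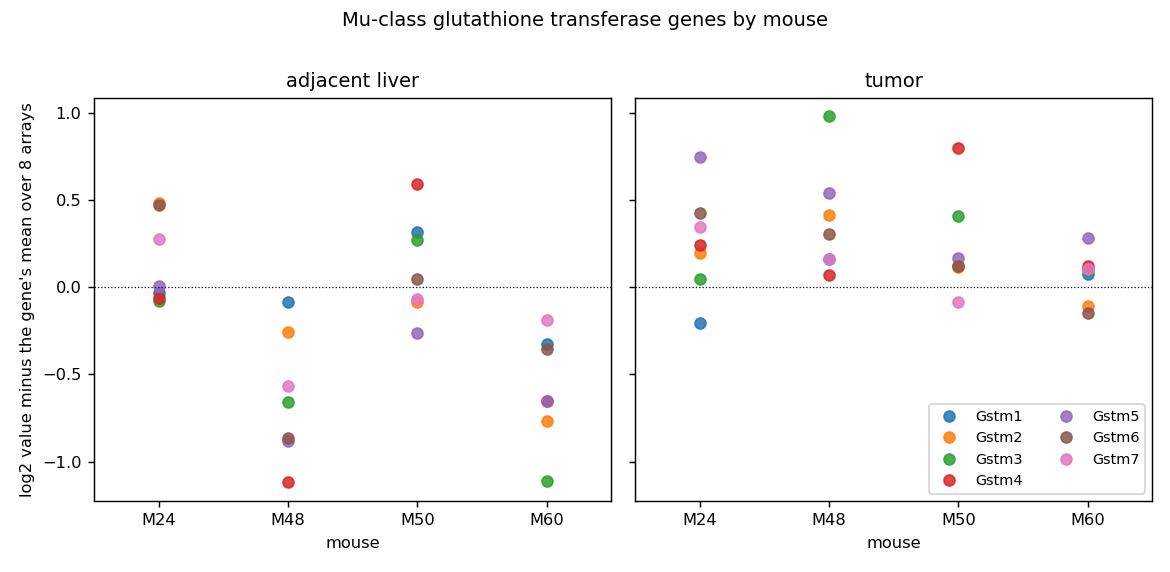
Values of the 7 mu-class genes as the log2 value minus the gene's own mean over 8 arrays (y axis), by mouse (x axis), in adjacent liver on the left and tumor on the right, with 1 point for each gene. In adjacent liver the points of M48 and M60 all lie below 0, and the tumors of the 4 mice are more alike.

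Gstp1, the pi-class enzyme whose rat counterpart is a classical marker of early liver lesions, did not pass. It stood at 12.45, 12.43, 13.06 and 13.04 in the adjacent liver of M24, M48, M50 and M60 and at 12.41, 12.36, 12.81 and 12.88 in their tumors. Both tissues of M50 and M60 were higher than both tissues of M24 and M48, so the mice differed by more than the tissues did. The difference was -0.13 (SE 0.0852, 95% interval -0.33 to 0.08, adjusted p = 0.301), with all 4 mice slightly lower, from -0.03 in M24 to -0.24 in M50. A further 2 probes of the pi class and 4 of the alpha class carried several gene symbols and were not used. Gstp3, another pi-class gene, had adjacent values of 7.44, 6.52, 7.04 and 7.0 and tumor values of 7.43, 7.11, 8.48 and 7.89. It rose by 0.73 (SE 0.219, adjusted p = 0.0449), with -0.01 in M24 and 1.44 in M50. That call was lost without M48, M50 or M60, with no replicate block (adjusted p = 0.0972) and with weaker filters on low values.

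Gstt1, a theta-class enzyme that acts on small halogenated compounds, did not pass either. Its adjacent values were 10.24, 9.06, 10.63 and 10.32 in M24, M48, M50 and M60, and its tumor values 10.49, 9.50, 10.30 and 10.53. Both samples of M48 were lower than all samples of the other mice. The difference of 0.14 had a 95% interval of -0.18 to 0.46 and an adjusted p = 0.457, with 3 mice higher and M50 lower. Gstt2 (-0.08, adjusted p = 0.776) and Gstt3 (-0.67, adjusted p = 0.0772), which lie near it on chromosome 10, also did not pass. Gstt3 was lower in 4 of 4 mice, with -1.65 in M50 and -0.13 to -0.47 in the others. Gstt4 was below the filter on low values and was not tested.

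The remaining family genes were read from a list of 21 further transferases, of which 16 were measured, 12 tested, 4 higher and 2 lower, with a median of 0.27. Of all tested genes 16.3% were higher and 15.7% lower. Gsto1, the omega-class enzyme that reduces dehydroascorbate, fell by 0.97 (SE 0.132, adjusted p = 0.00289), from 9.0, 9.26, 9.49 and 9.37 in adjacent liver to 7.96, 8.68, 8.59 and 8.0 in the tumors of M24, M48, M50 and M60. Gstz1, the zeta-class isomerase of tyrosine breakdown, fell by 0.46 (adjusted p = 0.0358), a call that was lost without M24, M50 or M60. Both were lower in 4 of 4 mice, but only the groups of Gsto1 did not overlap.

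Ptges, the glutathione-dependent prostaglandin E synthase, rose by 1.05 (SE 0.0907, adjusted p = 0.000642), from 6.07, 5.39, 6.06 and 5.27 in the adjacent liver of M24, M48, M50 and M60 to 7.06, 6.56, 7.14 and 6.22 in the tumors. Its 4 differences were close together, from 0.94 to 1.17. Hpgds, the prostaglandin D synthase of the sigma class, rose by 0.73 (SE 0.179, adjusted p = 0.023), from 4.76, 6.18, 4.71 and 4.07 to 5.23, 6.38, 5.88 and 5.14. Both samples of M48 were the highest of their group. The mean over 10 macrophage markers was also highest in M48, at 9.01 in adjacent liver and 8.66 in tumor against 7.06 to 8.33 and 7.19 to 7.51 in the other mice, and its part in the level of Hpgds was not tested. The Hpgds call was lost with no replicate block (adjusted p = 0.251) and without M24, M50 or M60. The MAPEG relative Mgst3 stood at 0.00 (adjusted p = 0.995) and Gstcd, which carries a transferase-like domain, at 0.27 (adjusted p = 0.0962). Gsto2, Mgst2 and Ltc4s were below the filter. Over all 22 tested genes of the family, members included, 5 rose, 5 fell and 12 did not pass. The shares over all tested genes were 16.3% higher and 15.7% lower.

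**Figure D3:**
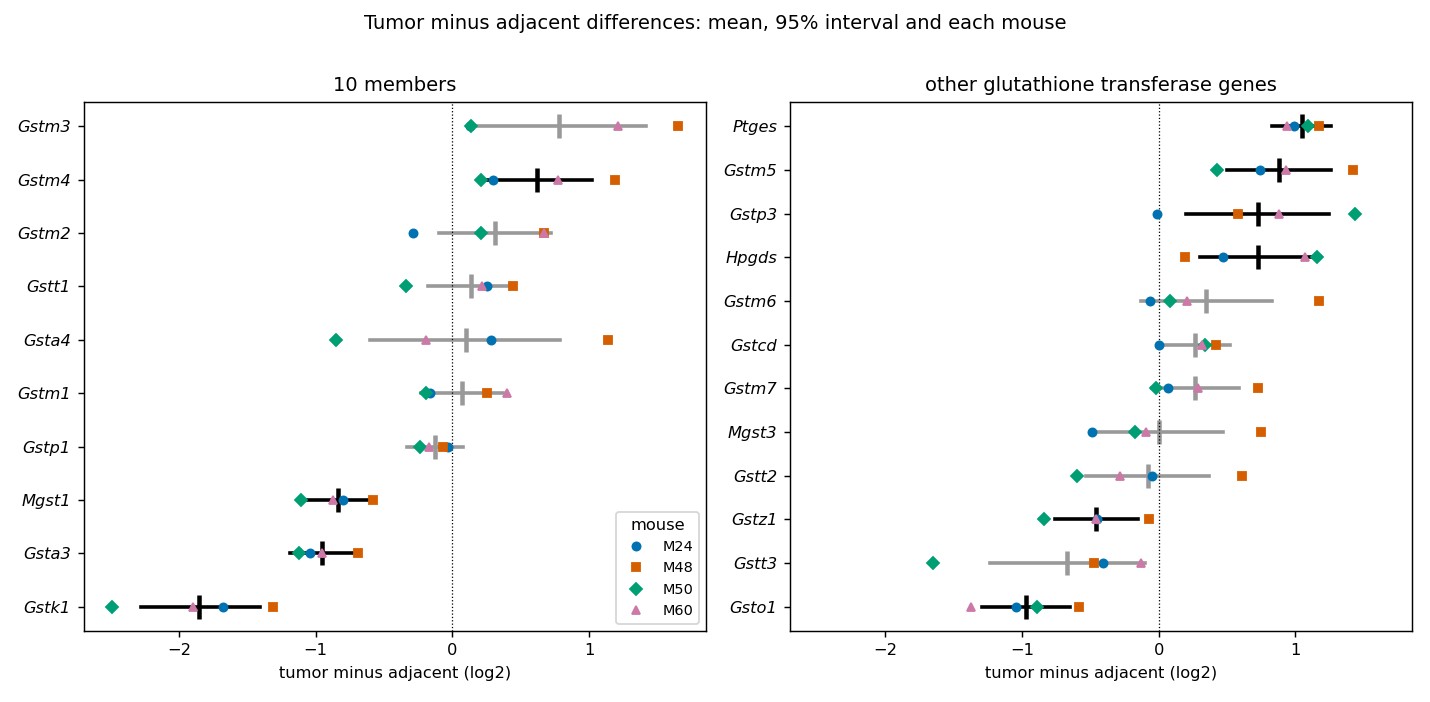
Tumor minus adjacent differences (x axis, log2) of the 10 members (left) and of 12 other tested family genes (right). The tick is the mean, the bar its 95% interval, black where the adjusted p was under 0.05, and the symbols are the 4 mice, with M48 at the right end for most mu-class genes and M50 at the left end for Gstk1, Mgst1 and Gsta3.

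The supply of glutathione, the substrate of these enzymes, was read from lists of the pathway. Of 9 tested genes of glutathione synthesis and cysteine supply 2 rose and 5 fell. Among all tested genes 16.3% rose and 15.7% fell. Slc7a11, the cystine transporter, rose by 4.95 (adjusted p = 0.000444) from an adjacent mean of 3.38, which is below the filter value of 4.597, so the size is uncertain. Cth (-1.31) and Cbs (-0.88), which make cysteine from methionine, and Cdo1 (-0.76), which breaks cysteine down, fell, as did Mat1a (-0.74). Of the 2 subunits of glutamate-cysteine ligase, the regulatory Gclm fell by 0.72 (adjusted p = 0.00754) while the catalytic Gclc stood at 0.32 (adjusted p = 0.0646), and glutathione synthetase (Gss) rose by 0.64 (adjusted p = 0.00325).

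Of 15 tested genes of glutathione reduction, peroxidases, glutaredoxins and glyoxalases, 5 fell and 1 rose, with a median of -0.27. The gene that rose was Gpx8, by 0.52, a call that was lost without M24, M50 or M60. Both glyoxalases fell, Glo1 by 1.09 and Hagh by 0.78, as did the glutaredoxin Glrx by 0.87, Adh5, which handles the glutathione adduct of formaldehyde, by 0.58 and the peroxidase Gpx1 by 1.32. Glutathione reductase (Gsr) stood at -0.11 (adjusted p = 0.433). Of 11 tested genes of glutathione breakdown and mercapturate formation 3 rose and 4 fell, 63.6% together, beside the same 31.9% of all tested genes. Nat8, the acetyltransferase of the last step to mercapturates, fell by 2.32 (adjusted p = 0.00187), and Chac2, Oplah and Acy1 fell by 0.58, 0.93 and 0.40, while Ggct, Cndp2 and Kyat1 rose by 1.24, 0.66 and 0.32.

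Transporters that carry glutathione conjugates out of the cell changed unequally. Of 7 tested genes 3 rose, Abcc4 by 1.5, Abcc5 by 0.98 and Abcc1 by 0.74, and 1 fell, Abcc6 by 1.02. Among all tested genes 16.3% rose and 15.7% fell. Abcc2, the main canalicular exporter of conjugates, stood at -0.13 (adjusted p = 0.425). The Abcc1 call was lost with no replicate block (adjusted p = 0.0866) and without M24 (0.0687).

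Of 17 tested transcription factors known to act on transferase genes 3 rose and 8 fell, with a median of -0.22. Among all tested genes 16.3% rose and 15.7% fell. The xenobiotic receptor CAR (Nr1i3) fell by 1.77, its partner Rxra by 0.73 and the dioxin receptor Ahr by 1.15. The small Maf protein genes Maff and Mafk rose by 1.43 and 0.83. The adjacent mean of Maff, 4.55, is below the filter value of 4.597, so the size of its rise is uncertain. Nfe2l2, which encodes NRF2, rose by 0.65 (adjusted p = 0.00744), while its inhibitor Keap1 stood at 0.02 (adjusted p = 0.871). Of 19 tested NRF2 targets outside the transferases 7 rose and 4 fell, and with no replicate block 7 rose and 1 fell. The shares over all tested genes with no replicate block were 14.6% higher and 15.0% lower. Pgd rose by 1.8, Srxn1 by 1.71 and Nqo1 by 1.3, beside Slc7a11, Abcc4, Cbr3 and Tkt, and Gclm, Me1, Ephx1 and Ftl1 fell, while Txnrd1 stood at 0.00 (adjusted p = 0.972).

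**Figure D4:**
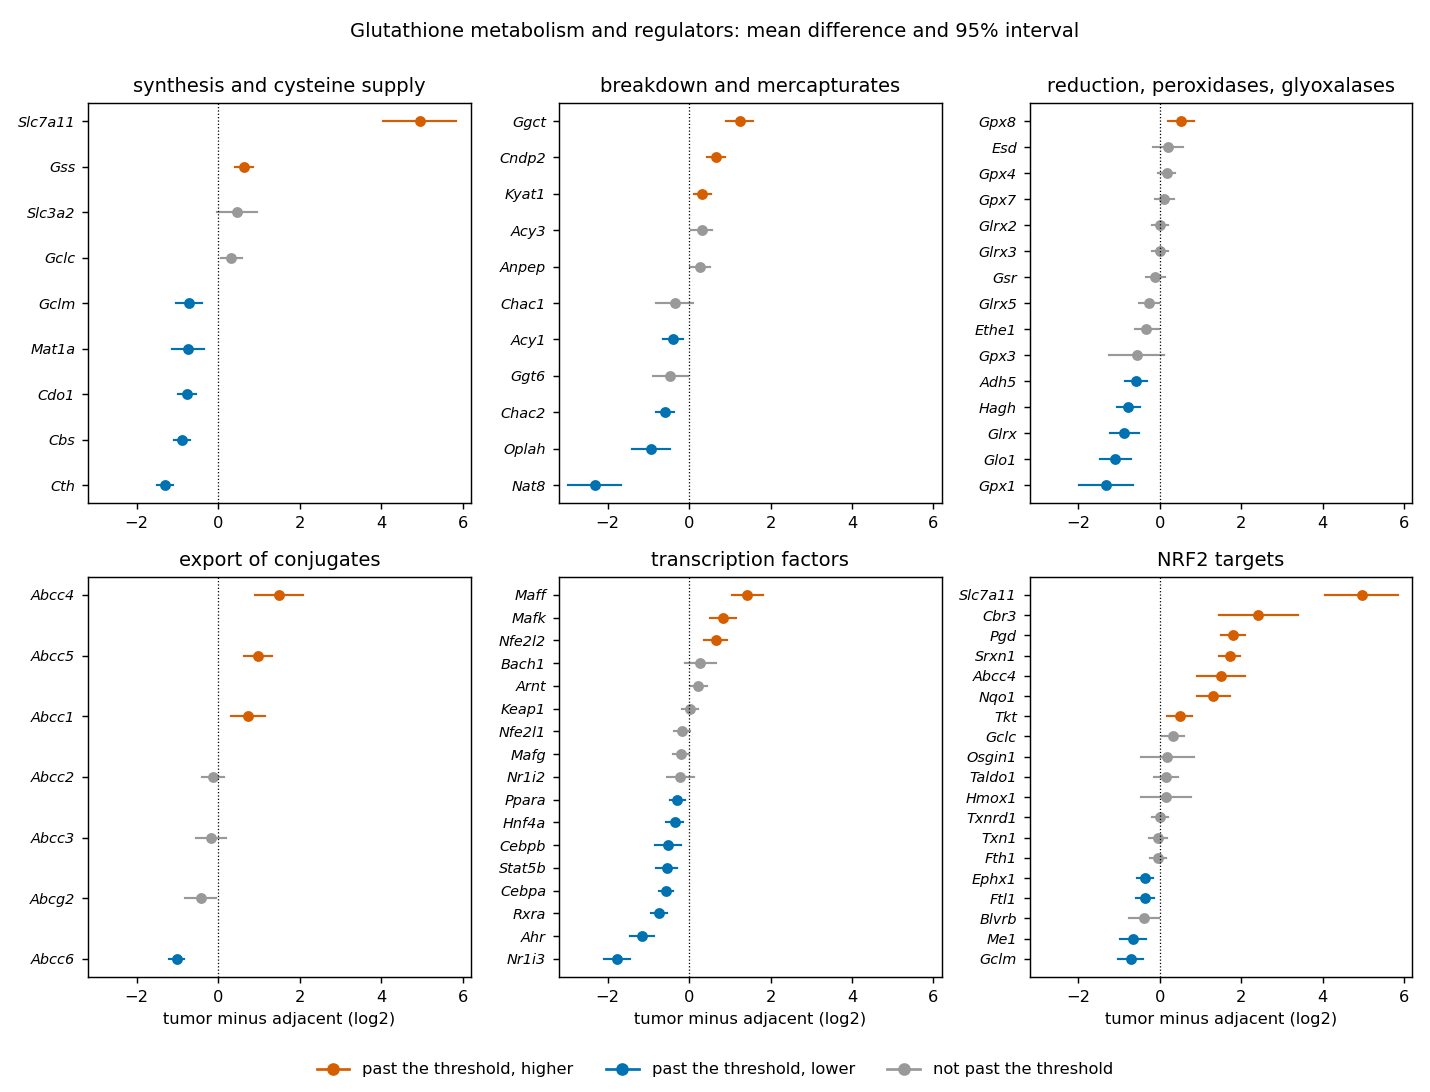
Tumor minus adjacent differences (x axis, log2) of all tested genes of 6 lists, as the mean over 4 mice with its 95% interval. The colours separate genes past the threshold in each direction from those that did not pass, and every panel holds genes of both directions.

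Pericentral hepatocyte genes are given beside the family because several transferases are known to be stronger in that zone of the lobule. Of 22 tested pericentral genes 18 fell and 1 rose, where 15.7% of all tested genes fell and 16.3% rose. The 4 with the smallest p were Slc1a4, the gene that rose (2.78), and Slc1a2 (-4.06), Glul (-2.13) and Cyp27a1 (-2.17), which fell. The median over the list was -2.03, with a mean level of 9.72 to 10.20 in adjacent samples against 6.85 to 8.52 in tumors. The mean went from 10.20 to 8.52 in M24, from 9.86 to 7.92 in M48, from 9.72 to 6.85 in M50 and from 9.92 to 7.94 in M60. M50, with the lowest tumor level, was the mouse in which Gstk1, Mgst1 and Gsta3 fell most, but these 3 fell least in M48, whose pericentral mean dropped further than that of M24. The part of that zone in the falls was not tested.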

How the data were processed

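Expression was measured in 8 liver samples on mouse gene arrays with biotin-labelled RNA. The authors deposited 1 table of log2 values with 28874 probes; the log base was taken from their range (1.918 to 14.49) and the columns had nearly equal medians (4.888 to 5.006). MAS5 is the only tool in the submitters' processing notes, where its role is not stated. How background was corrected and probes were summarized and normalized is not given in the sources used here. Detection calls were not used here. Gene symbols came from the array's annotation table (21789 probes with 1 symbol, 1621 with several, 5464 without an entry), and gene order and promoters from RefSeq tables of GRCm38.p6.

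For a gene with several single-symbol probes the brightest on average was kept, and the 40% of genes with the lowest mean (below 4.597) were left out. The tissues were compared using limma 3.58.1 in R 4.3.3 (lmFit and eBayes with a mean-variance trend, two-sided, 3 residual and 3.643 prior degrees of freedom) with the mouse as a block, since both tissues came from the same animals. Deviations from the group means correlated at 0.313, 0.421, 0.0986 and 0.111 within M24, M48, M50 and M60 and at -0.378 to 0.189 between mice. On simulated data with 200 changed genes among 11963, the fit recovered 44.2% of genes changed 1.5-fold, 79.4% changed 2-fold and 95.6% changed 4-fold, and 4.52% of calls were false. In the real data 31.9% of tested genes were called, a far larger share than was changed in the simulation. The adjustment was therefore stricter on the simulated data, and the recovered shares do not carry over to the real fit.

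Gene lists are described by counts and medians, with no set test. Members and lists were chosen with earlier results of these data known. The rule named all members, all further family genes, up to 4 genes with the smallest p of each other list, and the 5 genes most like the member with the largest difference. Gclc, Gclm, Gss, Mat1a, Gpx1, Gpx8, Gsr, Oplah, Acy1, Kyat1, Abcc2, Mafk, Nfe2l2, Keap1, Txnrd1, Cbr3, Tkt, Me1, Ephx1, Ftl1 and Cd68 were added after their values were seen. The rule also did not cover Cps1, Apoa1, Apoa2, Cd163, Marco, Timd4 and Clec4f. Together with Cd68 these are the hepatocyte and macrophage markers that passed the test. Protein identity between members was not analysed here. Alternatives are given in the closing section.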

Additional observations from a re-analysis of the deposited data

Results flagged for a closer look

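In the adjacent samples Gsta3 was at 11.84 in M48, far from the 12.53 to 12.62 of the other 3 mice. Among tumors Mgst3 was at 6.47 in M24, against 7.26 to 7.41 in the others. Each was set apart because its gap to the nearest sample took up more of the group's range than Dixon's 95% critical value for 4 samples allows. In all 66 sets of 4 values were examined this way (adjacent, tumor and difference for 22 family genes), and chance alone sets apart about 1 in 20.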

How the results depend on the processing

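The falls of Gstk1, Gsta3 and Mgst1 kept their direction and an adjusted p under 0.05 under all alternatives run: no replicate block, other filters on low values, averaged probes, quantile normalization, median centring, no mean-variance trend, array weights and leaving out each mouse. The rise of Gstm4 did not: it was 0.62 with no replicate block (adjusted p = 0.207) and 0.42 to 0.75 when a mouse was left out, which ended the call without M24, M48 or M60. The count of members that rose was then 0 in place of 1 with no replicate block and 0 to 1 with a mouse left out, where Gstm2 passed without M24 (adjusted p = 0.0493). Leaving out a mouse gave -0.25 to 0.41 for Gsta4, -0.04 to 0.16 for Gstm1, 0.19 to 0.51 for Gstm2, 0.49 to 1.0 for Gstm3, 0.04 to 0.30 for Gstt1 and -0.16 to -0.09 for Gstp1. The replicate block changed the call of no other member.

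Over all genes, 1945 rose and 1874 fell, against 1238 to 1759 and 1071 to 1720 with a mouse left out. With no replicate block the further transferases had 2 higher in place of 4 and the NRF2 targets 1 lower in place of 4. With weaker or no filter on low values, 2 genes of the reduction list rose in place of 1, as more genes were tested. With a mouse left out, the counts were 2 to 3 higher and 1 to 2 lower for the further transferases, 0 to 1 higher for the reduction list, 2 to 5 lower for breakdown, 5 to 6 lower for transcription factors, 1 to 4 lower for NRF2 targets and 10 to 18 lower for male-biased genes. Not every count went down: without M48, 18 male-biased genes were lower, against 16 in the main fit. Fewer samples enter the fits with a mouse left out, and the causes of the changed counts were not tested. Among the 43 genes outside the members that the rule named from the lists, 15 of 516 alternative values lost the call and 4 changed sign. These counts leave out the genes added after their values were seen, the genes most like Gstk1 and the cell type markers. The 4 changes of sign were all of genes that did not pass: Gstt2 to 0.09 without M50 (range -0.31 to 0.09 with a mouse left out), and Mgst3 to 0.16 without M24, 0.06 without M50 and 0.03 without M60 (range -0.25 to 0.16).

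With 1 array per sample, no detection calls and 4 mice, the precision is limited, and Mgst1, Gstp1, Gsta3 and Gstm1 were measured near the top of the range.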
